A study of Rattus norvegicus with 18 samples.

Results

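The genes described here encode the proteins of the synaptic vesicle and of the SNARE machinery that fuses it with the nerve terminal membrane. They were chosen by name: every gene whose single symbol in the platform's annotation marks it as a synaptotagmin, synapsin, SV2 protein, vesicle SNARE (Vamp), syntaxin, member of the Snap group, complexin, Rab3 GTPase, syntaxin-binding protein or synaptogyrin. The rule found 59 of the 14217 named genes, with 92 of the 31099 probe sets, and each gene was represented by its probe set of highest mean intensity over all arrays. Of the 59 genes, 48 were bright enough to be tested and 11 were not. Snap91 entered through its symbol alone, since it encodes the clathrin adaptor AP180 and not a SNARE.

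Total RNA from rat amygdala, hippocampus and cortex was measured on 18 Affymetrix expression arrays. Each region had 3 arrays from rats exposed to chronic immobilization stress, in which the animal is repeatedly restrained, and 3 from rats that were only handled. Strain, sex, age and the length of the stress are not given in the labels, and nothing in them says that arrays of a group came from separate rats. The spread behind each p-value is therefore a spread between arrays that may be technical. The region came from the title of each array, because another label names the amygdala throughout. Markers of the amygdala were higher in handled amygdala than in both other regions for 5 of 5 genes tested, all 5 cortical markers were higher in cortex than in hippocampus, but only 1 of those 5 differed between cortex and amygdala. Of 4 hippocampal markers, 3 were higher in hippocampus than in cortex and Wfs1 was lower.

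At a nerve terminal, the vesicle SNARE synaptobrevin pairs with syntaxin and SNAP-25 on the plasma membrane, and the zippering of this complex drives fusion. Syntaxin-binding proteins regulate the assembly, complexins bind the assembled complex and hold it ready, and synaptotagmins on the vesicle sense the calcium that triggers release. Synapsins tether the reserve pool of vesicles, SV2 proteins and synaptogyrins span the vesicle membrane, and Rab3 GTPases steer vesicles to the release site. Other syntaxins, Vamps and Snaps serve membrane fusion elsewhere, between internal membranes or at the surface of many cell types.

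Upstream sequences are shown for a vesicle SNARE, a complexin and a syntaxin that differed between all 3 handled regions, namely Vamp1 and Cplx2 (highest in hippocampus) and Stx1a (lowest there), and for Syn1, which with Vamp1 holds a full cyclic AMP response element. RefSeq (assembly GRCr8) had an entry for 46 of the 59 members. Each line gives the 250 bases before the annotated start, 5′ to 3′ on the gene's strand, with capitals for TGACGTCA (the response element) and GGGCGG (a GC box). The intervals are chr4:159698644-159698893 on the plus strand for Vamp1, chr17:10236754-10237003 on the minus strand for Cplx2, chr12:27306472-27306721 on the minus strand for Stx1a and chrX:3725495-3725744 on the plus strand for Syn1.
Vamp1: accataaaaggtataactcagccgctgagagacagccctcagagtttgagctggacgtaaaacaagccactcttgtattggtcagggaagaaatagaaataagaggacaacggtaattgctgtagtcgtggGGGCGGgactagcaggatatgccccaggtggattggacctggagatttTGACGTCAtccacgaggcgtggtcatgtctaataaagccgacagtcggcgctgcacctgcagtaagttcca
Cplx2: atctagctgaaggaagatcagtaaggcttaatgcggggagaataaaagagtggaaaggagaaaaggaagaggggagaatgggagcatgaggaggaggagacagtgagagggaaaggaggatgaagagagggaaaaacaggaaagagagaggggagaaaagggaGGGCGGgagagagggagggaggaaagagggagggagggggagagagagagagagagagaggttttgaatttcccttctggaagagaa
Stx1a: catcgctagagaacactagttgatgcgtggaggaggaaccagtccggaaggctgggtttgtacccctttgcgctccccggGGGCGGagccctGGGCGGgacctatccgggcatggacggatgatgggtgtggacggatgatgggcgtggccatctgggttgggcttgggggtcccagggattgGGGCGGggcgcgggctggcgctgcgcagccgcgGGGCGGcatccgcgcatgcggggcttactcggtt
Syn1: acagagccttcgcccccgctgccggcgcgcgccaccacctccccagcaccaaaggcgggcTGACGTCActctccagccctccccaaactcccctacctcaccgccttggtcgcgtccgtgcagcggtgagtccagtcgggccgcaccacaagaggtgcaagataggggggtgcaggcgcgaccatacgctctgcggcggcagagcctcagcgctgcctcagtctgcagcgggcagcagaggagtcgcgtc
Searched on both strands, TGACGTCA was present in 2 of the 46 members (Syn1 and Vamp1) and in 1.59% of all 33469 promoters of this length. The shorter TGACG, which lies inside it, was found in 14 of 46 members and 18.2% of all promoters. GGGCGG was found in 29 of 46 members against 30.5% of all promoters, and TATAAA in 2 of 46 against 12.9%. The members' upstream bases had a median GC content of 60.8%, against 51.2% for all promoters. These matches describe letters only.

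Between regions of handled rats the members differed in both directions. Vamp1 and Cplx2 were highest in hippocampus, Stx1a, Syt17 and Rab3b were highest in cortex, and Syt1 was lower in amygdala than in both other regions. Of the 48 tested members, 12 (25.0%) differed between amygdala and cortex, where 14.7% of all probe sets were called at an adjusted p under 0.05. Between hippocampus and cortex 18 members (37.5%) differed, against 25.9% of all probe sets, and between amygdala and hippocampus 23 members (47.9%), against 28.4%. By direction, 3 members were higher and 9 lower in amygdala than in cortex (8.14% and 6.56% of all probe sets), 7 were higher and 11 lower in hippocampus than in cortex (12.2% and 13.6%), and 9 were higher and 14 lower in amygdala than in hippocampus (15.5% and 12.9%). Read with 1 probe set per named gene, the backgrounds were 14.7%, 27.9% and 29.7%. The arrays of the compared regions did not overlap for 35.1%, 39.4% and 39.5% of all probe sets, in the same order. Differences below are given as log2 of the intensity plus 16, with the standard error of the fit and the p adjusted over all probe sets by limma, and levels are linear intensities, which can be compared between arrays for 1 probe set but not between probe sets. In such bulk tissue, fewer cells of a type and less RNA per cell cannot be told apart.

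Among the vesicle SNAREs, Vamp1 (synaptobrevin 1) had the clearest regional pattern. Its intensities were 977, 926 and 955 in handled hippocampus, 464, 452 and 435 in handled amygdala, and 333, 394 and 359.7 in handled cortex. No array of one region overlapped another. Hippocampus exceeded cortex by 1.36 ± 0.07 log2 (adjusted p = 8.6e-13) and amygdala exceeded cortex by 0.31 ± 0.07 (adjusted p = 0.0051). A second Vamp1 probe set gave 1.24 ± 0.13 for hippocampus over cortex, and a dim one gave 0.07 ± 0.23. Vamp2, the synaptobrevin of most forebrain terminals, averaged 1677 ± 82.1 (SD, n = 3) in handled amygdala, 1503 ± 161 in hippocampus and 1712 ± 99.7 in cortex, and no region comparison was called. Vesicle SNAREs of endosomal and lysosomal traffic also differed: Vamp7 was higher in hippocampus than in cortex by 0.44 ± 0.09 (adjusted p = 0.00059), while Vamp4 was lower there, by a difference of -0.35 ± 0.06 (adjusted p = 0.00021). Vamp3, Vamp5 and Vamp8, which serve fusion outside the synapse, passed the test in no handled comparison.

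Of the partners on the plasma membrane, Stx1a was lowest in hippocampus, the region where Vamp1 was highest. Stx1a (syntaxin 1A, a SNARE of the release site) measured 281, 246 and 237 in handled hippocampus, 551, 518 and 445 in amygdala and 771, 784 and 845 in cortex. The 3 regions did not overlap, with hippocampus lowest and cortex highest. The difference from cortex was -1.59 ± 0.12 log2 in hippocampus (adjusted p = 5e-10) and -0.65 ± 0.12 in amygdala (adjusted p = 0.0006). The other Stx1a probe set had the same order, at -1.04 ± 0.16 and -0.59 ± 0.16. Snap25, which joins Stx1a and synaptobrevin in the fusion complex, averaged 6962 ± 291 in amygdala, 7662 ± 405 in hippocampus and 7066 ± 296 in cortex. None of the 3 tested genes of the Snap25 family was called in a handled comparison; for Snap25 the hippocampus minus cortex difference was 0.12 ± 0.06 (adjusted p = 0.21). Of the syntaxins of internal membranes, Stx6 (trans-Golgi network) was higher in hippocampus than in cortex by 0.65 ± 0.08 (adjusted p = 4.9e-07). Stx12 (recycling endosomes) was lower in amygdala than in cortex, by a difference of -0.26 ± 0.07. The other tested Stx12 probe set had the opposite sign in this comparison and was not called. Stx8 (late endosomes) was lower in amygdala than in hippocampus, by -0.65 ± 0.14. The other 6 tested syntaxins were called in none of the 3 comparisons.

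All 3 complexins differed between hippocampus and each of the other regions, and not in one direction. Over all probe sets, 25.9% differed between hippocampus and cortex and 28.4% between amygdala and hippocampus. Cplx2 measured 1469, 1194 and 1117 in handled hippocampus, 863, 876 and 964 in amygdala and 667, 723 and 629.9 in cortex, again with no overlap. It exceeded cortex by 0.88 ± 0.12 in hippocampus (adjusted p = 3e-06) and by 0.41 ± 0.12 in amygdala (adjusted p = 0.018). Cplx1, the complexin of many inhibitory terminals, was higher in hippocampus than in cortex by 0.35 ± 0.05 (adjusted p = 2.6e-05) and its amygdala minus hippocampus difference was -0.40 ± 0.05. Cplx3, known from ribbon synapses of the retina, was dim: 55.1, 36.2 and 21.0 in hippocampus, 84.0, 109 and 78.8 in amygdala, and 96.1, 133 and 88.6 in cortex. Its hippocampal arrays were all below the others, at -1.22 ± 0.20 against cortex (adjusted p = 6.3e-05).

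Of the 10 tested synaptotagmins, 3 differed between amygdala and cortex, 5 between hippocampus and cortex and 7 between amygdala and hippocampus. Over all probe sets, 14.7%, 25.9% and 28.4% were called in these comparisons. Syt1, the calcium sensor of fast release, measured 428, 476 and 466 in handled amygdala, against 683, 857 and 883 in hippocampus and 771, 774 and 886 in cortex. The amygdala arrays were all below the rest, by a difference of -0.80 ± 0.18 from cortex (adjusted p = 0.0033) and -0.79 ± 0.18 from hippocampus (adjusted p = 0.0017), while hippocampus minus cortex was -0.01 ± 0.18 (adjusted p = 0.98). Syt4, a synaptotagmin of dense-core vesicles and of postsynaptic release, had 1104, 1070.3 and 1227 in amygdala, 1257, 1363 and 1339 in hippocampus and 1772, 1691 and 1706 in cortex. Its order of cortex, hippocampus and amygdala passed the test at each step, with -0.60 ± 0.06 for amygdala minus cortex (adjusted p = 1.1e-07) and -0.22 ± 0.06 for amygdala minus hippocampus (adjusted p = 0.0066). Syt17 had 806, 752 and 832 in cortex, 467, 458 and 479 in amygdala and 400.05, 357 and 410.3 in hippocampus. Its cortex arrays stood above all the others, and hippocampus was -1.01 ± 0.07 from cortex (adjusted p = 1.2e-10); a second probe set gave -1.03 ± 0.10. Hippocampus minus cortex was -0.98 ± 0.12 for Syt16 and -0.65 ± 0.12 for Syt5, both called. Syt3 was the only tested synaptotagmin called higher in hippocampus than in cortex, by 0.41 ± 0.12 (adjusted p = 0.011). Syt15 was lower in amygdala than in hippocampus, by -1.05 ± 0.25, with an amygdala mean of 14.7 ± 10.7 that lies near the floor of the array.

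**Figure D1:**
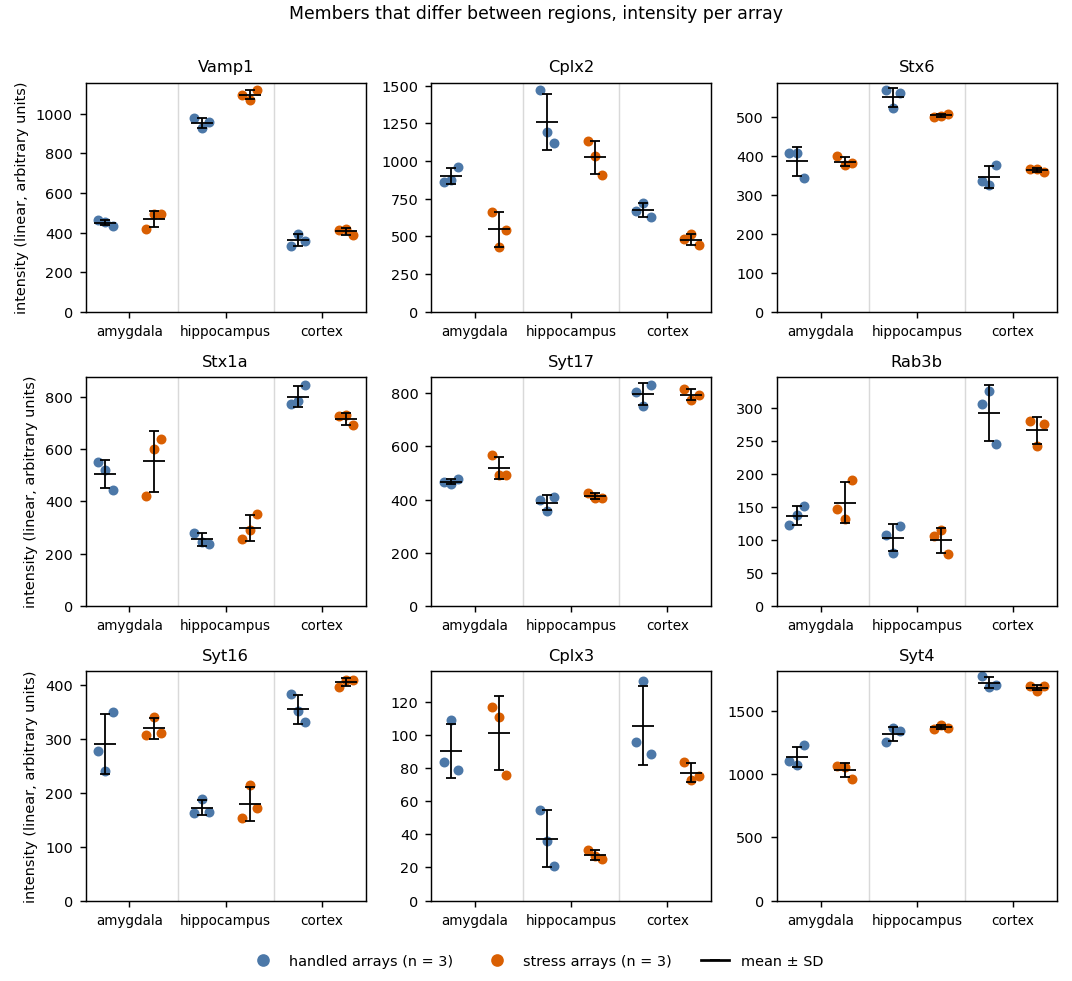
Linear intensity per array for 9 members, by region on the horizontal axis, with handled arrays in blue, stress arrays in orange, and bars for the mean ± SD of 3 arrays. Among the handled arrays, Vamp1, Cplx2 and Stx6 are highest in hippocampus and Stx1a, Syt16 and Cplx3 are lowest there, while Syt17, Rab3b and Syt4 are highest in cortex.

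Of the 6 tested synapsin, SV2 and synaptogyrin genes, 2 (33.3%) were called in amygdala minus cortex, 2 (33.3%) in hippocampus minus cortex and 4 (66.7%) in amygdala minus hippocampus. Over all probe sets the shares were 14.7%, 25.9% and 28.4%. Syn2, a synapsin, was highest in amygdala at 1185, 1236 and 1346, against 823, 826 and 895 in hippocampus and 1056, 990.2 and 1016 in cortex. The regions did not overlap, and amygdala exceeded hippocampus by 0.56 ± 0.06 (adjusted p = 1.4e-07). This order rested on 1 probe set, because the other Syn2 probe sets gave 0.16 ± 0.11 and -0.02 ± 0.14 for the same difference. Syn1 was called in no handled comparison; its means were 1281 ± 105, 1436 ± 65.1 and 1474 ± 51.6 in amygdala, hippocampus and cortex. Sv2a, the binding site of the drug levetiracetam, was lowest in hippocampus at 402, 357 and 337, against 524, 477 and 523 in amygdala, a difference of 0.46 ± 0.08 (adjusted p = 4.9e-05). Sv2b was higher in amygdala than in hippocampus by 0.25 ± 0.06 (adjusted p = 0.0051). Syngr3, a synaptogyrin enriched in neurons, was lower in amygdala than in cortex, at 836, 744 and 831 against 1073, 1096 and 1073, by a difference of -0.42 ± 0.08 (adjusted p = 0.00092).

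Of the 4 Rab3 GTPases, Rab3b stood out in cortex, at 305, 326 and 245 against 122, 137 and 151 in amygdala and 108, 81.0 and 122 in hippocampus. All cortex arrays exceeded all others, and the difference from cortex was -1.37 ± 0.15 for hippocampus (adjusted p = 1.8e-07) and -1.0 ± 0.15 for amygdala (adjusted p = 4.6e-05). Rab3a, the main Rab3 of the brain, averaged 2344 ± 92.5, 2310.2 ± 143 and 2245 ± 87.1 in amygdala, hippocampus and cortex. It was not called, although its other probe set was lower in amygdala than in hippocampus, by -0.30 ± 0.11 (adjusted p = 0.038). Rab3c was not called in a handled comparison, and Rab3d was lower in amygdala than in hippocampus, by -0.71 ± 0.20 (adjusted p = 0.011). Among the syntaxin-binding proteins, Stxbp5 (tomosyn, an inhibitor of SNARE assembly) was lowest in amygdala at 339, 368 and 357, against 522, 493 and 521 in hippocampus and 427, 480.2 and 425 in cortex. Its amygdala minus hippocampus difference was -0.51 ± 0.07 (adjusted p = 1.1e-05), and both other tested probe sets of Stxbp5 were called the same way. Stxbp6 (amisyn) was lower in amygdala than in cortex, by -0.32 ± 0.07, and Stxbp3, a syntaxin-binding protein of many tissues, was higher in hippocampus than in cortex by 0.35 ± 0.10 (adjusted p = 0.013).

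**Figure D2:**
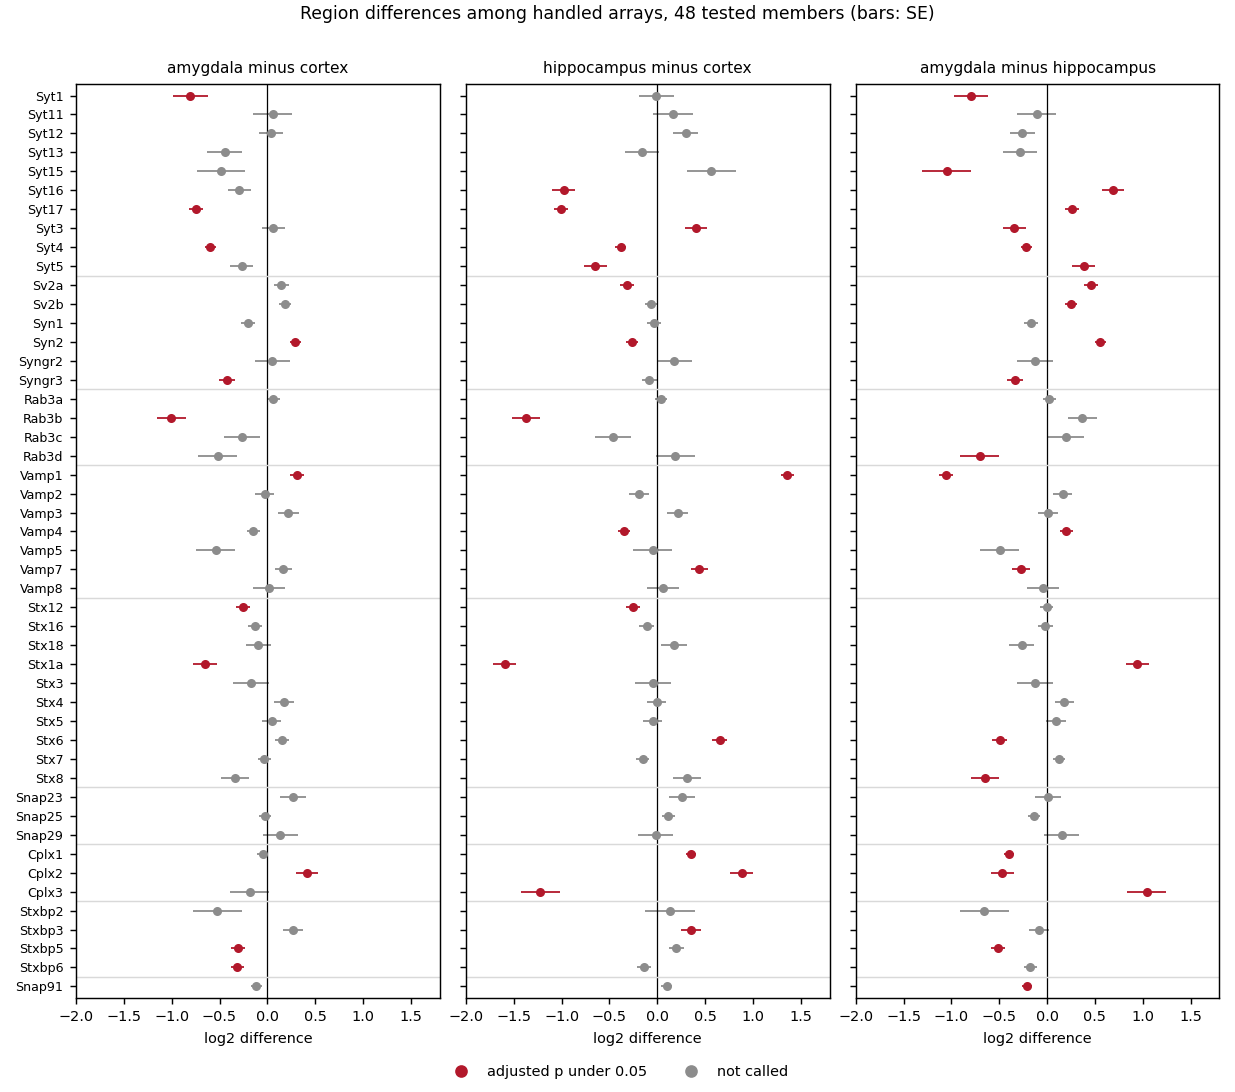
Log2 differences between handled regions for the 48 tested members, grouped by role, with bars for the standard error and colour for an adjusted p under 0.05. Called members lie on both sides of 0 in each comparison: 3 higher and 9 lower for amygdala minus cortex, 7 and 11 for hippocampus minus cortex, and 9 and 14 for amygdala minus hippocampus.

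The median difference of the tested members was -0.10, -0.01 and -0.12 for amygdala minus cortex, hippocampus minus cortex and amygdala minus hippocampus, beside 0.01, -0.01 and 0.02 over all probe sets. Several of these calls were lost when 1 array was left out, which also leaves fewer arrays in the fit. In amygdala minus cortex, the call of Cplx2 was lost without amygdala array 3 (adjusted p = 0.083), cortex array 1 (0.056) or cortex array 3 (0.085), and that of Stx12 without cortex array 2 (0.052). In hippocampus minus cortex, the call of Stxbp3 was lost without hippocampus array 1 (0.064) or cortex array 2 (0.095), and that of Syt3 without hippocampus array 1 (0.060). In amygdala minus hippocampus, calls were lost without amygdala array 2 for Rab3d (0.11), without hippocampus array 2 for Syt17 (0.055), and without amygdala array 2 (0.074) or hippocampus array 2 (0.094) for Vamp4. Syt3 lost this call without amygdala array 1, 2 or 3 or hippocampus array 1 (0.054 to 0.12), and Syt5 without amygdala array 1 or 2 or hippocampus array 2 or 3 (0.060 to 0.098). Markers of other cells moved with region as well. All 8 oligodendrocyte markers were called higher in handled hippocampus and amygdala than in cortex, with summed intensities of 21858 to 24365, 16878 to 17959 and 11463 to 12005. All 8 meningeal fibroblast markers lay lower in both than in cortex, 7 of them called in each comparison and 6 in both, with sums of 1946 to 2125, 1059 to 1167 and 4354 to 4589, and none of either list was at 0. In amygdala minus hippocampus, all 6 tested microglia markers and 5 of 6 GABA neuron markers were called higher (Pvalb lower), with summed intensities of 1197 to 1229 against 793 to 810 for the 8 listed microglia markers and 4432 to 4583 against 2506 to 2577 for GABA neurons. Of 10 general neuron markers, 3 were called higher and 5 lower in that comparison. The log2 gap between the 3′ and 5′ control probe sets of beta-actin, which grows as RNA is shortened, averaged 2.07 ± 0.08 in handled amygdala, 1.54 ± 0.23 in hippocampus and 1.66 ± 0.05 in cortex. The part of these differences in the members' values was not tested.

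The stress arrays measured the same region differences on separate arrays. All 53 handled calls had the same sign there, where a gene can count in several comparisons. Neither this agreement in sign nor the sharing of calls given below was counted over all probe sets. Between amygdala and cortex 14 members were called in stress arrays, against 19.8% of all probe sets, and 10 genes were shared, which is 10 of the 12 handled and 10 of the 14 stress calls. Between hippocampus and cortex 22 members were called (25.3% of all probe sets) with 16 shared, of 18 and 22. Between amygdala and hippocampus 21 were called (27.8% of all probe sets) with 17 shared, of 23 and 21. Vamp1 was again higher in hippocampus than in cortex by 1.40 ± 0.07 and Cplx2 by 1.07 ± 0.12, while Stx1a differed by -1.23 ± 0.12, Syt17 by -0.92 ± 0.07 and Rab3b by -1.29 ± 0.15. Syt1 was again lower in amygdala than in cortex, by -1.18 ± 0.18. Snap25, not called in handled arrays, was called higher in stress hippocampus than in stress cortex by 0.24 ± 0.06 (adjusted p = 0.0064). Of the handled calls, 2 for amygdala minus cortex were not found in stress arrays: Cplx2, at 0.17 ± 0.12 (adjusted p = 0.33), and Vamp1, at 0.19 ± 0.07 (adjusted p = 0.062). For hippocampus minus cortex these were Stxbp3, at 0.12 ± 0.10, and Syn2, at -0.13 ± 0.06. For amygdala minus hippocampus they were Rab3d (-0.33 ± 0.20), Stx8 (-0.29 ± 0.14), Sv2a (0.17 ± 0.08), Sv2b (0.01 ± 0.06), Syt15 (-0.06 ± 0.25) and Syt3 (-0.15 ± 0.12).

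One array and several marker lists stand beside the stress comparisons. Amygdala stress array 1 had the lowest value of the 6 amygdala arrays in 14 of the 48 members, more than the 4 to 8 of each other array, and in 13 of the 21 further tested probe sets of these genes. This was not counted over all probe sets, so whether it is particular to the members is not known. The 3′ to 5′ gaps of amygdala stress array 1 for beta-actin (2.41) and GAPDH (0.54) were the largest of the amygdala arrays. The hexokinase gap was larger in all 3 stress amygdala arrays, at 1.23 ± 0.07 against 0.83 ± 0.08 in handled ones. Of the 7 tested striatal neuron markers, all 7 lay above 0 in stress amygdala with a median of 0.59 and 1 called (Ppp1r1b), and their summed intensity was 2056 to 2432 against 1709 to 1875 in handled amygdala, with none at 0. None of 10 neuron markers was called in stress amygdala, where their median was -0.03. Of 6 GABA neuron markers, 4 lay above 0 and 2 below with a median of 0.05, and only Gad2 was called, lower. In stress hippocampus, all 8 oligodendrocyte markers lay below 0 with a median of -0.20 and 2 called (sums of 18526 to 20834 against 21858 to 24365), and 2 of 4 choroid plexus markers were called higher, Ttr and Sostdc1 (sums of the 5 listed 3529 to 3736 against 1216 to 1355). In stress cortex, all 8 meningeal markers lay below 0 with a median of -1.04 and 6 called, and their sums were 1945 to 1978 against 4354 to 4589. The part of these in the members' values was not tested.

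Few members were called under chronic stress. In amygdala 3 of 48 (6.25%) were called, beside 2.40% of all probe sets: Cplx2 and Sv2b fell (2 of 48, beside 1.94% of all probe sets lower) and Syt15, near the floor in handled arrays, was called higher (beside 0.456% higher). In hippocampus and in cortex limma called 0 of 48, beside 0.360% and 0.403% of all probe sets. At an unadjusted p under 0.05 there were 8 and 10 members (16.7% and 20.8%), beside 10.9% and 10.2% of all probe sets. Averaged over the 3 regions, 4 of 48 (8.33%) were called beside 4.66% of all probe sets: Cplx2, Syt12 and Sv2b fell (3 of 48, beside 3.07% lower) and Stxbp5 rose (beside 1.59% higher). Over all tested members the median change was 0.04 in amygdala, 0.04 in hippocampus and 0.01 in cortex, beside 0.01, 0.00 and 0.00 over all probe sets. Handled and stress arrays did not overlap for 16.6%, 14.2% and 23.3% of all probe sets in these regions, in the same order.

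Of the members called lower under stress, Cplx2 had the largest change. In amygdala it measured 863, 876 and 964 in handled arrays and 665, 433 and 544 in stress arrays, with no overlap. The change was -0.72 ± 0.12 log2 (adjusted p = 0.00098), and it remained called in all 16 alternatives, with an adjusted p of at most 0.022. In hippocampus the handled arrays read 1469, 1194 and 1117 and the stress arrays 1132, 1032 and 908, which overlap, at -0.29 (adjusted p = 0.36). In cortex they read 667, 723 and 629.9 against 480.3, 514 and 440.3, which do not overlap, at -0.48 (adjusted p = 0.069). The average over regions was -0.50 ± 0.07 (adjusted p = 7.9e-05). Neither other complexin was called: Cplx1 changed by -0.08 in amygdala, and Cplx3 averaged 90.8 ± 16.4 in handled and 102 ± 22.3 in stress amygdala.

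Syt12, a synaptotagmin that does not bind calcium, was lower by nearly the same amount in each region. It measured 114, 141 and 143 against 82.5, 87.5 and 119 in amygdala, 159, 159 and 167 against 109, 124 and 117 in hippocampus, and 134, 117 and 137 against 83.2, 98.8 and 92.0 in cortex, handled arrays first. Handled and stress arrays overlapped in amygdala only. The changes were -0.42 ± 0.13, -0.42 ± 0.13 and -0.43 ± 0.13, none called by itself (adjusted p = 0.10, 0.18 and 0.17), and their mean was called at -0.43 ± 0.07 (adjusted p = 0.001). In amygdala it was called without stress array 3, at -0.56 ± 0.13 (adjusted p = 0.017).

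**Figure D3:**
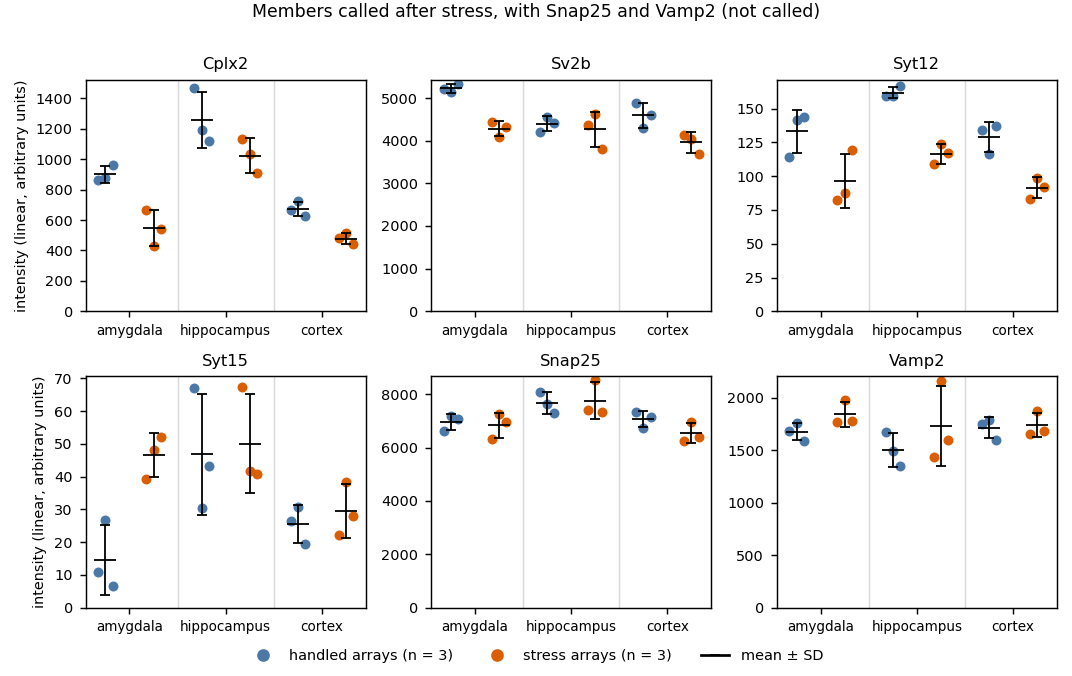
Linear intensity per array for Cplx2, Sv2b, Syt12 and Syt15, called in a stress comparison, and for Snap25 and Vamp2, which were not, by region on the horizontal axis, with handled arrays in blue, stress arrays in orange, and bars for the mean ± SD of 3 arrays. Stress arrays of Cplx2 lie below the handled ones in amygdala and cortex, and those of Syt12 below the handled ones in hippocampus and cortex.

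Sv2b, a glycoprotein of the vesicle membrane, fell in amygdala from 5213, 5132 and 5339.9 to 4430.03, 4095 and 4315, without overlap, a change of -0.29 ± 0.06 (adjusted p = 0.015). Its second probe set fell as well, from 1688, 1623 and 2015 to 1021, 1261 and 1275, by -0.58 ± 0.09 (adjusted p = 0.0005). The call of the brighter probe set was lost without amygdala stress array 2 (adjusted p = 0.078), handled array 1 (0.050) or handled array 3 (0.083). In cortex the brighter probe set changed by -0.21 ± 0.06 (adjusted p = 0.19) and in hippocampus by -0.05 ± 0.06 (adjusted p = 0.84), and the average was -0.18 ± 0.04 (adjusted p = 0.0048). The second probe set had the opposite sign in cortex and in hippocampus, where it was not called. On average it had the same sign as the brighter one and was not called. Syt15 was called higher in stress amygdala, at 39.2, 48.2 and 52.2 against 10.8, 26.7 and 6.51 in handled arrays (1.08 ± 0.25, adjusted p = 0.021). The handled values lie near the floor, so the size is no measured fold: it was 1.81 with an offset of 1 and 0.50 with an offset of 64. With a mean of 35.5 over all arrays it was the dimmest member tested, and its call was lost without amygdala stress array 2 (adjusted p = 0.071), stress array 3 (0.063), handled array 1 (0.087) or handled array 3 (0.15). The number of members called in amygdala was accordingly 1 without stress array 2, handled array 1 or handled array 3. Stxbp5 was 0.15 ± 0.04 higher on average (adjusted p = 0.048), its other probe sets gave -0.01 ± 0.10 and -0.04 ± 0.09, and the call was lost in 19 of 27 alternatives.

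Other core members of release were not called under stress in any region. Syt1 changed by -0.08 ± 0.18 in amygdala, where stress array 1 read 263 beside 529 and 567 and the handled arrays read 428, 476 and 466; without that array its average over regions was called at 0.22 ± 0.07 (adjusted p = 0.046). Vamp1 was 0.14 ± 0.04 higher on average (adjusted p = 0.063), and was called without amygdala stress array 1 (adjusted p = 0.013) or cortex handled array 2 (0.038). Of the 2 other tested Vamp1 probe sets, 0 had the same sign in this average. Snap25 had 6632, 7181 and 7073 in handled amygdala and 6322, 7243 and 6952 in stress amygdala, which overlap. Stx1a had 551, 518 and 445 against 420.3, 599 and 638, with the stress arrays on both sides of the handled ones. Vamp2, Rab3a, Syn1, Syt4, Sv2a and Cplx1 had adjusted p-values above the threshold in each region, which does not show that they stayed level.

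**Figure D4:**
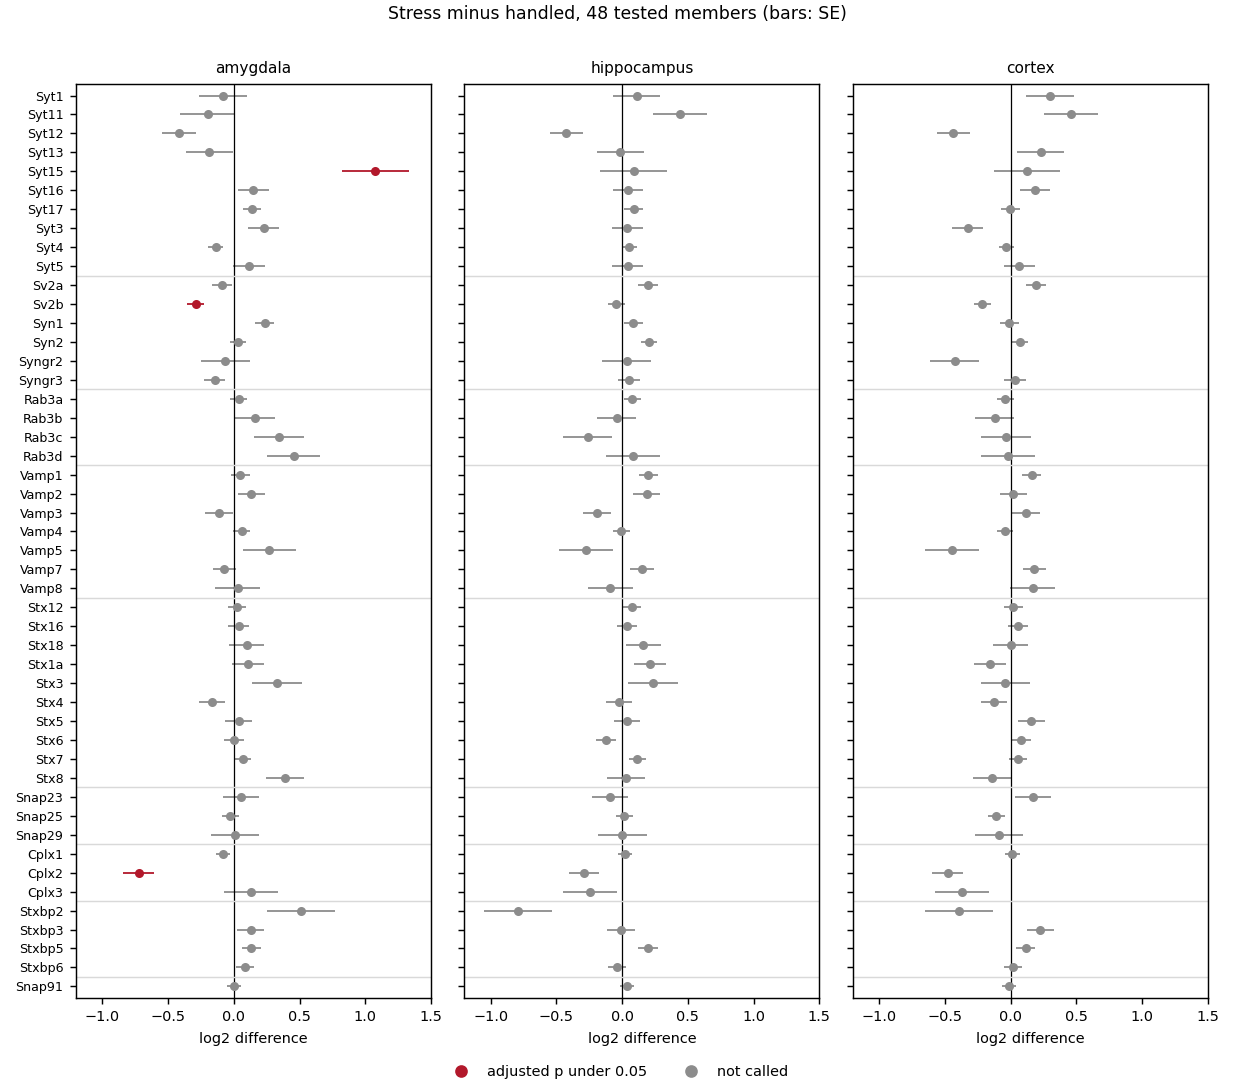
Log2 change from handled to stress for the 48 tested members in each region, grouped by role, with bars for the standard error and colour for an adjusted p under 0.05. Cplx2, Sv2b and Syt15 are coloured in amygdala, and no member is coloured in hippocampus or cortex.

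Whether the stress effect differed between regions was tested directly, and no member was called. The background was 0.0483% of all probe sets for amygdala minus hippocampus, 0.129% for amygdala minus cortex and 0.0859% for hippocampus minus cortex, and 8, 8 and 2 members had an unadjusted p under 0.05 (16.7%, 16.7% and 4.17%, beside 8.06%, 9.76% and 5.63% of all probe sets). The second probe set of Sv2b was the exception among further probe sets: its stress change in amygdala minus that in hippocampus was -0.71 ± 0.12 (adjusted p = 0.028).

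Some members had further probe sets. Of 21 further tested probe sets of 18 members, 17, 18 and 16 had the sign of the brighter one in amygdala minus cortex, hippocampus minus cortex and amygdala minus hippocampus. For the stress change in amygdala 9 of 21 did; whether this share is lower than between regions was not tested. Syn2 was 1 of the genes whose probe sets parted. Its brightest probe set read 1185, 1236 and 1346 in handled and 1257, 1307 and 1291 in stress amygdala, a change of 0.03 ± 0.06. Its second read 1107, 1102 and 1295 against 609.8, 820.4 and 894, without overlap, a fall of -0.60 ± 0.11 (adjusted p = 0.003). The part of the Syn2 transcripts that each reads is not given in the sources used here.

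**Figure D5:**
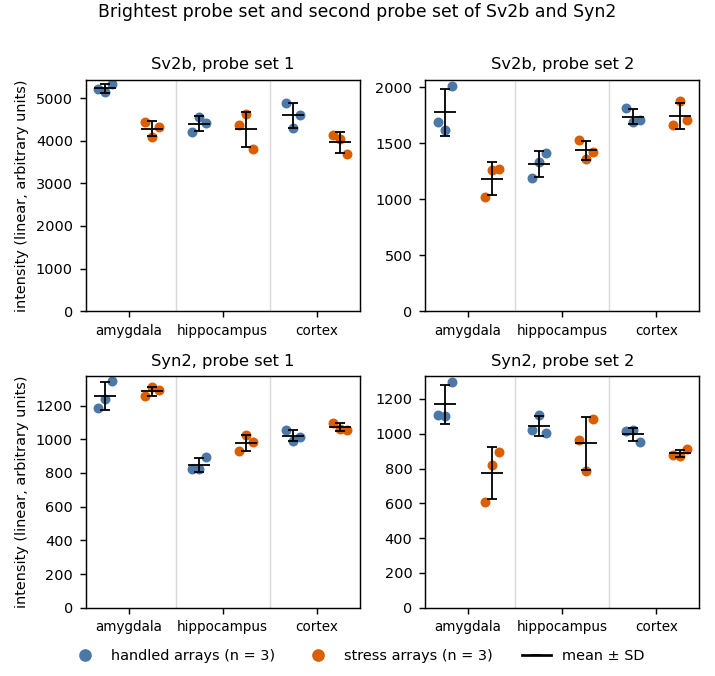
Linear intensity per array for the brightest and second probe set of Sv2b and Syn2, by region, with handled arrays in blue, stress arrays in orange, and bars for the mean ± SD of 3 arrays. Both Sv2b probe sets are lower in stress amygdala, whereas only the second Syn2 probe set is.

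Genes that work beside these proteins were read from 3 wider lists. Of 27 tested genes of vesicle priming, the active zone and SNARE disassembly, 1 was called under stress in amygdala and 1 in hippocampus. Over all probe sets, 2.40% and 0.360% were called there. Rab27b, a GTPase of vesicle docking, fell in amygdala from a mean of 141 ± 21.5 to 71.4 ± 5.72, by -0.84 ± 0.15 (adjusted p = 0.0024), and Cadps2, a priming factor of dense-core vesicles, fell in hippocampus from 180.1 ± 13.2 to 124 ± 8.99, by -0.49 ± 0.10 (adjusted p = 0.031). Both were also called lower on average, as were 3.07% of all probe sets. Between handled regions this list had 8 calls for amygdala minus cortex (5 higher), 16 for hippocampus minus cortex (11 higher) and 14 for amygdala minus hippocampus (6 higher). Over all probe sets, 14.7%, 25.9% and 28.4% were called in these comparisons (8.14%, 12.2% and 15.5% higher). Unc13c, a Munc13 priming protein, was higher in amygdala than in cortex by 1.63 ± 0.16, and Cadps2 was higher in amygdala than in hippocampus by 1.68 ± 0.10. Napa (alpha-SNAP, which helps to take SNARE complexes apart) and the active-zone scaffold Erc1 were higher in hippocampus than in cortex, by 0.96 ± 0.07 and 1.02 ± 0.10.

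Of 19 tested vesicle membrane proteins, transmitter transporters and proton pump subunits, none was called under stress in a single region. Over all probe sets, 2.40%, 0.360% and 0.403% were called in amygdala, hippocampus and cortex. Atp6v1d of the proton pump was lower on average by a change of -0.17 ± 0.04 (adjusted p = 0.026), beside 3.07% of all probe sets lower. Handled calls numbered 5 (2 higher), 9 (7 higher) and 11 (3 higher) in the same order of comparisons, beside 14.7%, 25.9% and 28.4% of all probe sets. The vesicular glutamate transporters went opposite ways: hippocampus minus cortex was 0.52 ± 0.08 for Slc17a7 and -1.11 ± 0.19 for Slc17a6. Slc32a1, which loads GABA, was higher in amygdala than in cortex by 0.54 ± 0.11. Of 24 tested genes of vesicle endocytosis, Pacsin1 (syndapin 1, which links dynamin to the actin skeleton) fell under stress in amygdala from 711 ± 62.8 to 526 ± 45.0, by -0.42 ± 0.09 (adjusted p = 0.010), and on average by -0.32 ± 0.05. Of all probe sets, 1.94% were called lower under stress in amygdala. The endocytosis list had 3, 6 and 9 handled calls, of which 2, 4 and 2 were higher, beside 14.7%, 25.9% and 28.4% of all probe sets. In hippocampus minus cortex, Epn2 (epsin 2) was 0.66 ± 0.08 higher and Dnm3 (dynamin 3) differed by -0.82 ± 0.20.

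The 11 untested members were Stx11, Stx17, Sv2c, Syn3, Syngr1, Syt2, Syt6, Syt7, Syt8, Syt9 and Syt10, with mean intensities from 8.56 (Syt2) to 25.1 (Syt9). Syt9 was the nearest below the limit and Syt15, at 35.5, the nearest above it. Of the core genes, Syt2, Syt7, Sv2c and Syngr1 were among them. Syt7, a slow calcium sensor, read 14.5, 2.67 and 10.8 in handled and 34.4, 22.5 and 32.7 in stress amygdala; these do not overlap, but both lie near the floor and no test was made.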

How the data were processed

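The deposited values are 1 intensity for each probe set and array, on a linear scale in arbitrary units; the software that summarised the probes is not given in the sources used here. In the values as the authors deposited them, the mean intensity after trimming 2% from each tail lay between 150.04 and 150.05 on all 18 arrays, so every array had been scaled to a common mean and no further scaling was applied. Symbols came from the platform's probe annotation, and a probe set with several symbols or none was not used for a member. The 57 control probe sets were left out. Values were analysed as log2(intensity + 16), whose offset shrinks the differences of dim probe sets, and the 18625 probe sets with a mean at or above the 40th percentile were tested. Group means were fitted with limma 3.58.1 in R 4.3.3 (12 residual and 10.2 prior degrees of freedom, variance trend), two-sided, with Benjamini-Hochberg adjustment over all 18625 probe sets and a threshold of 0.05. The fit was tested on simulated intensities. Arrays give no read depth, and 3 arrays per group limit the precision. The members and the gene lists were chosen with earlier results of these data known. Members named in the text were those called in a stress comparison, the 10 largest calls per direction in each region comparison, and a core of 20 release genes, not all of which are reported here; the 3 wider pathway lists were named where called under stress or among the 3 largest region differences per direction. Alternatives were other offsets, filters, scalings, variance models, arrays in the fit and probe set rules, each array left out, and a replicate block. For region differences, stress arrays in place of handled ones were a further alternative. The labels do not say whether same-numbered arrays of different groups belong together. Deviations from group means of same-numbered arrays correlated with a median r of 0.001 across 45 pairs, and 1 pair exceeded 0.1. A low correlation cannot exclude a shared animal or batch, so pairing is unknown. Promoter sequences are from RefSeq, assembly GRCr8.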

Additional observations from a re-analysis of the deposited data

How the results depend on the processing

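Alternatives were computed for the members and for counts over all probe sets, not for single genes of the wider lists. Of the 48 named region calls 31 were kept in all of them, and of the 7 stress calls 3 were (Cplx2 in amygdala and on average, Syt12 on average). None changed sign. For region calls, the alternatives counted here included the stress arrays in place of the handled ones. A setting that left a gene untested was not counted as a loss, as for Cplx3 with the filter at the 60th percentile. The count averaged over regions was 4, and 2 without the variance trend. In cortex, fitting only the cortex arrays called 4 members (Cplx2, Sv2b and Syt12 lower, Syt1 higher) against 0, with 3.01% of all probe sets against 0.403%. With the probe sets of a gene averaged, 1 member (Sv2b) was called for the amygdala minus hippocampus stress difference, against 0. Without the variance trend Sv2b lost its calls in amygdala (adjusted p = 0.11) and on average (0.050). Fitting only its region, Syt15 lost its call (adjusted p = 0.12). Averaging probe sets ended the region calls of Stx12, Stxbp5, Syn2 and Vamp1 in amygdala minus cortex, Stx12 and Syn2 in hippocampus minus cortex, and Syt3 and Vamp4 in amygdala minus hippocampus. The use of stress arrays for region differences was chosen after seeing the data.

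Leaving out each array in turn gave 11 to 13 calls for amygdala minus cortex, 15 to 21 for hippocampus minus cortex, 18 to 24 for amygdala minus hippocampus, 1 to 3 for stress in amygdala, 3 to 5 for stress on average, and 0 to 0 for the other stress comparisons. The replicate block left 12, 19, 23, 3 and 4 calls in the first 5 of these and 0 in the rest, against 12, 18, 23, 3 and 4 without it.

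Over all 18625 probe sets, 447 (2.40%) were called for stress in amygdala, 186 (0.999%) in its own fit, and 240 of the 14883 rows (1.61%) left when probe sets of a gene are averaged. In hippocampus there were 67 (0.360%), 32 (0.172%) without the variance trend and 20 (0.107%) in its own fit. In cortex there were 75 (0.403%), 43 (0.231%) without the trend and, with no filter, 48 of 31042 (0.155%). On average there were 868 (4.66%), and 570 (3.06%) without the trend. Changes among dim probe sets were limited by signal near the floor.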
